A study of Mus musculus with 12 samples.

Results

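The bodies of 40 long genes with neuronal functions were examined, from 2 kb downstream of the annotated start to the end of each gene. The genes were listed by name as long neuronal genes that are mostly silent in stem cells. No measured value was used in the rule, but earlier results of these data were known. They were 40 of 19408 autosomal protein-coding genes, with bodies of 368617 to 2268724 bp and a median of 1128061 bp. All CpG sites with reads and with fewer than 12 CpG sites from 100 bp before to 100 bp after them were used, which gave 214522 sites in the 40 bodies and 13555939 autosomal sites in all. No site lay in more than 1 of the bodies. Methylation was measured by eRRBS, a bisulfite sequencing assay in which genomic DNA is first cut with MspI, BfaI and MseI, in 12 mouse ES cell lines with 2 lines in each of 6 groups. All lines were triple knockout (TKO) cells without Dnmt1, Dnmt3a and Dnmt3b, and carried a human enzyme expressed from the pPyCAGIZ vector under Zeocin selection. The groups expressed DNMT3A WT, DNMT3B N656I, DNMT3B K777A or DNMT3B N779A, or DNMT3B WT in either of 2 sets of lines. WT set a was compared with DNMT3A and N656I, and WT set b with K777A and N779A, after the prefix of the line names. Lines with the empty vector were not analysed here, each group was represented by 2 lines, of which it is not given here whether they are pools or single-cell clones, and expression from a vector is not the level of the endogenous gene. RNA was not measured, so that neither the silence of the genes nor the identity of the cells was checked in these data.

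DNMT3A and DNMT3B are the de novo DNA methyltransferases, and DNMT1 copies methylation to the new strand after replication. The PWWP domain of both enzymes binds methylated lysine 36 of histone H3, and trimethylation of this lysine is laid down in transcribed gene bodies. Long neuronal genes mostly encode adhesion molecules, receptors and scaffolds of the synapse, lie in AT-rich regions and replicate late in cells that do not express them.

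The 12 lines had 16224222 to 36029921 reads on CpG sites and 1030180 to 10717789 covered sites. In the 40 bodies, 13634 to 150604 sites were covered per line with 213777 to 472294 reads, and every one of the genes had at least 77 covered sites in each line. DNMT3B WT set a replicate 2 stood apart, with the fewest covered sites at 16.1 reads per member site, whereas the other 11 lines had 2.17 to 4.80. Reads were counted without molecular identifiers, and the spread between lines was used as the error. The level of a region was the mean over its covered sites of methylated reads divided by all reads, and the background was the mean of all other autosomal sites, weighted to the same numbers of CpG sites in 200 bp.

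The pooled level of the 40 bodies was highest in DNMT3A lines, at 38.4% and 38.6%, and lowest in K777A lines, at 6.77% and 8.17%. It was 17.3% and 16.8% in WT set a, 14.9% and 11.7% in N656I, 13.9% and 11.97% in WT set b, and 11.3% and 12.99% in N779A. The DNMT3A lines did not overlap with any other group, and neither did those of K777A or of WT set a. The lines of N656I, WT set b and N779A overlapped with each other. In each of the 12 lines the bodies were below the background of the same density. The difference was −1.38 ± 0.265 percentage points in DNMT3A (SD, n = 2), −0.663 ± 0.339 in WT set a, −0.792 ± 0.337 in N656I, −1.71 ± 0.469 in WT set b, −0.388 ± 0.240 in K777A and −1.02 ± 0.0576 in N779A. In K777A it was −0.134 points over sites with at least 5 reads, −0.237 without density weighting and −0.607 with weighting by flanking bases as well, and the lines had −0.558 and −0.218. In DNMT3A it was −0.903 points over sites with at least 5 reads and −0.908 without weighting. In WT set a it was −1.01 points with a density limit of 6, and the lines had −0.902 and −0.423. Relative to the background level this was between −3.45 ± 0.657% in DNMT3A and −11.8 ± 3.91% in WT set b.

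The 40 bodies were nearer in level to sites outside protein-coding genes than to the pooled bodies of other protein-coding genes. Their level in DNMT3A lines differed by 0.300 ± 0.296 points from sites outside protein-coding genes, and by −4.20 ± 0.247 points from the bodies of other protein-coding genes. The corresponding values were 0.199 ± 0.212 and −2.09 ± 0.503 points in WT set a, 0.245 ± 0.179 and −1.31 ± 0.278 points in K777A, and −0.505 ± 0.309 and −3.47 ± 0.630 points in WT set b. Against the bodies of 496 other genes of at least 300 kb, the difference was −3.22 ± 0.253 points in DNMT3A and −2.06 ± 0.127 points in WT set b, with both lines of each of the 6 groups negative. The bodies of 40 housekeeping genes were higher than the members in each of the 12 lines. The difference of the members was −6.14 ± 0.692 points in WT set a, −7.18 ± 1.80 in WT set b and −4.27 ± 0.674 in K777A, whereas it was −1.78 ± 1.23 points in DNMT3A. The DNMT3A lines had −2.65 and −0.911 points. The housekeeping bodies are short, with a median of 21603 bp. They hold a median of 10.4 CpG sites per kb, compared with 5.76 in the members, and their pooled level rests on 769 to 7679 sites a line. Which of these traits goes with the difference was not tested. A list of 54 related genes held genes of the same families, such as Cntn1 and Erbb3, and partners of members, such as Reln and Kcnd2. Against their bodies the difference was −1.37 ± 0.247 points in DNMT3A and between −0.681 ± 0.915 and −0.0970 ± 0.0147 points in the DNMT3B groups. In WT set b and K777A these related bodies, at −0.451 ± 0.431 and −0.135 ± 0.126 points, differed from the members by less in the mean than the sites outside genes did, within the spread of the lines.

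**Figure D1:**
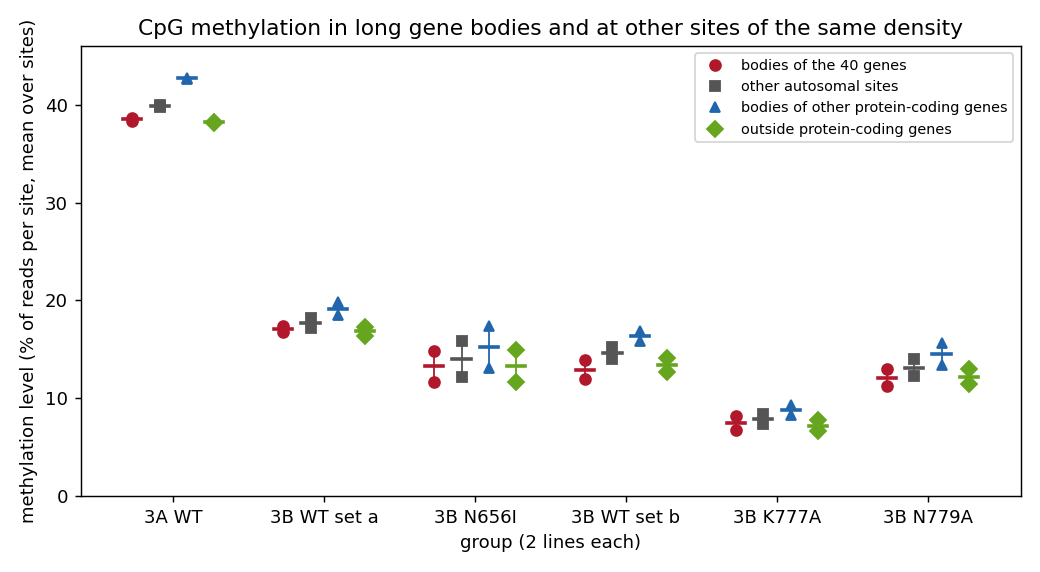
Methylation level in percent (y axis) of the 40 bodies, of other autosomal sites, of bodies of other protein-coding genes and of sites outside protein-coding genes, the last 3 weighted to the CpG density of the members, for the 6 groups (x axis). Points are lines and short horizontal bars are the means of 2 lines. The members of DNMT3A lines sit at 38.5% and those of K777A lines at 7.47%, and in each group the members are below the bodies of other genes.

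The 40 genes were not uniform. Gene levels ranged from 28.2% to 50.4% in DNMT3A lines, with a median of 37.2%, and from 4.85% to 10.8% in K777A lines, with a median of 7.13%. Compared with the background of the same density, 24 of the 40 were lower in both DNMT3A lines and 11 were higher in both. Of 13264 other protein-coding genes with at least 20 covered sites in both lines, 24.0% were lower and 49.8% higher in both DNMT3A lines. Among 496 other genes of at least 300 kb, 34.1% were lower. In WT set b, 31 of the 40 were below the background in both lines, compared with 22.6% of other genes and 43.4% of other genes of at least 300 kb. The counts in the other groups were 22 in WT set a, 26 in N656I, 25 in K777A and 28 in N779A, while 20.9% to 28.9% of other genes in these groups were below in both lines. Over the 12 lines, 17 genes were below the background in every line and 8 were above it in every line, and 15 were below in some lines and above in others. The order of the genes was stable between the lines of a group. Pearson's r of their differences from the background over the 40 genes was 0.962 between the DNMT3A lines and 0.930 to 0.944 in the other groups, except for WT set a, with 0.791. These coefficients are across genes of the same lines, which are not independent replicates.

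The level of a member followed the CpG content of its whole body, although the background was already matched to the density within 200 bp. The 40 bodies held 3.99 to 13.3 CpG sites per kb, with a median of 5.76, whereas the median of the other genes of at least 300 kb was 7.38. Of the mean differences over the 6 groups, 30 were negative and 10 positive. All 28 members with fewer than 7 CpG sites per kb were negative and all 7 with more than 9 were positive, while the 5 genes in between ranged from −1.14 to 2.83 points. Without WT set a replicate 2, the line with the fewest sites, 29 were negative, among them 27 of the 28. Pearson's r between CpG sites per kb and the mean difference was 0.904 and Spearman's rho was 0.906 over the 40 genes. In the single groups r lay between 0.862 and 0.916. The genes share the same lines and regions of the genome, and a body with few CpG sites also has sparser sites and another base composition, so these coefficients are descriptions. The same relation was seen in 494 other genes of at least 300 kb with values in every line, with r = 0.681 and rho = 0.766. Of 49 such genes with fewer than 5 CpG sites per kb, 98.0% were below the background, as were 71.8% of 163 genes with 5 to 7. Among 157 with more than 9 CpG sites per kb, 6.37% were below. Body length had a weaker relation, with rho = −0.295 in the members.

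**Figure D2:**
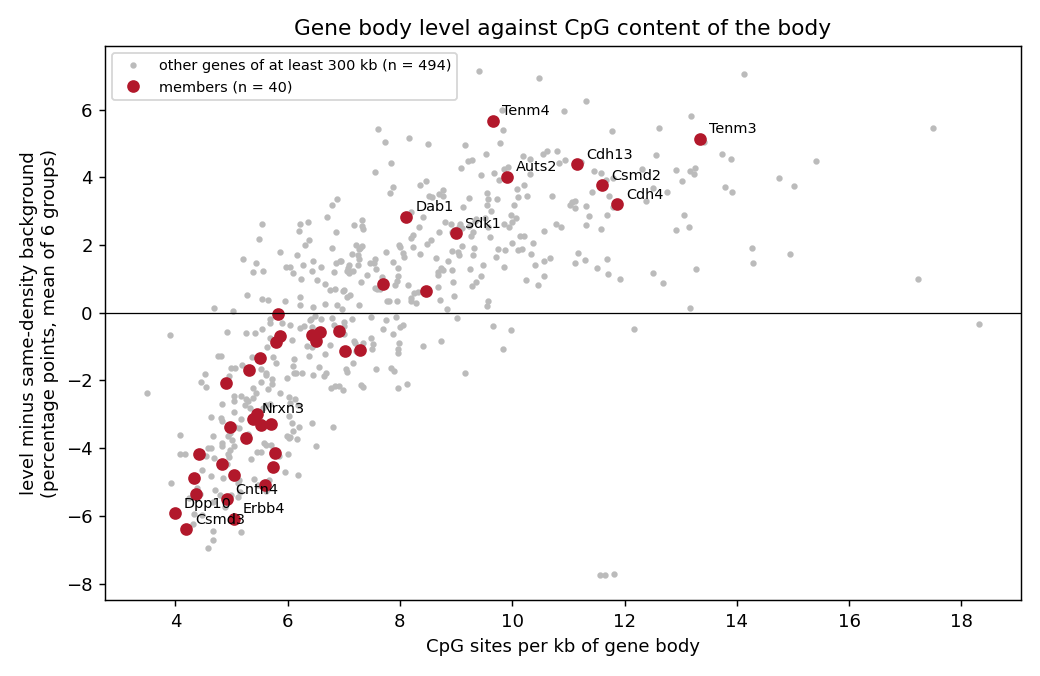
Level minus same-density background in percentage points, as the mean of 6 groups (y axis), against CpG sites per kb of gene body (x axis). Each point is a gene, red for the 40 members and grey for 494 other genes of at least 300 kb, and the members rise from −6.39 points for Csmd3 to 5.67 points for Tenm4 with r = 0.904.

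The 4 members with the lowest levels relative to background were Csmd3, Erbb4, Dpp10 and Cntn4. Csmd3 (chromosome 15, 47580637 to 48792063, minus strand, mm10) encodes a large membrane protein with CUB and sushi repeats. Its level was 28.6% and 27.7% in DNMT3A, 11.4% and 11.3% in WT set a, 9.98% and 7.67% in N656I, 8.68% and 6.17% in WT set b, 4.86% and 5.15% in K777A, and 7.34% and 8.44% in N779A. These values differed from the background by −12.03 to −2.58 points. Erbb4 (chromosome 1, 68032186 to 69108059, minus strand), the neuregulin receptor tyrosine kinase, had 28.6% and 31.1% in DNMT3A, 12.2% and 10.5% in WT set a, 9.25% and 7.53% in N656I, 8.09% and 6.52% in WT set b, 4.65% and 5.05% in K777A, and 8.53% and 9.18% in N779A. Both genes had their widest gap to the background in points in DNMT3A lines, at −11.6 ± 0.576 for Csmd3 and −9.89 ± 1.96 for Erbb4, where the background itself was highest. Dpp10 (chromosome 1, 123321471 to 124045559, minus strand), an auxiliary subunit of Kv4 potassium channels, had the fewest CpG sites per kb of the members, with 3.99. Its level was 29.6% ± 0.539 in DNMT3A, 12.5% ± 2.62 in WT set a, 7.76% ± 0.472 in WT set b and 5.12% ± 2.02 in K777A. Cntn4 (chromosome 6, 105677660 to 106699310, plus strand), a contactin on axons, had 29.0% ± 1.83 in DNMT3A, 12.4% ± 0.272 in WT set a, 9.82% ± 1.27 in WT set b and 5.72% ± 0.302 in K777A. All 4 genes were below the background in each of the 12 lines.

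At the other end were Tenm4, Tenm3, Cdh13 and Auts2, which were above the background in each line. Tenm4 (chromosome 7, 96171246 to 96911093, plus strand) encodes a teneurin, a transmembrane protein of synaptic partner matching. Its level was 49.7% and 50.6% in DNMT3A, 24.2% and 23.0% in WT set a, 22.2% and 15.3% in N656I, 20.6% and 20.4% in WT set b, 9.63% and 11.5% in K777A, and 16.3% and 19.01% in N779A. The teneurin gene Tenm3 (chromosome 8, 48227682 to 48843951, minus strand) had the most CpG sites per kb, with 13.3, and levels of 49.5% and 51.4% in DNMT3A, 24.0% and 19.2% in WT set a, 18.99% and 14.9% in N656I, 22.9% and 19.02% in WT set b, 9.59% and 11.98% in K777A, and 16.04% and 17.01% in N779A. In no line did the level of Csmd3 or Erbb4 reach that of Tenm4 or Tenm3 in the same line. These genes were chosen by their values in the same lines, so this separation is no further evidence. Cdh13 (chromosome 8, 118283733 to 119324921, plus strand), a cadherin anchored to the membrane by a lipid, had 46.3% ± 0.237 in DNMT3A, 23.6% ± 1.32 in WT set a, 18.96% ± 0.127 in WT set b and 9.31% ± 1.24 in K777A. Auts2 (chromosome 5, 131437333 to 132543344, minus strand), a nuclear protein of neuronal development, had 47.9% ± 1.54, 22.0% ± 1.07, 18.7% ± 2.81 and 9.74% ± 1.16 in the same groups.

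Genes of 1 protein family lay on both sides of the background. Of the 9 adhesion genes of the immunoglobulin type, the contactin genes Cntn4, Cntn6 and Cntn5 had mean differences over the 6 groups of −5.50, −5.34 and −2.09 points. The receptor phosphatase genes Ptprd and Ptprt had −4.79 and −1.14 points. The neighbouring genes Opcml and Ntm, which encode GPI-anchored proteins of the same IgLON family, had −0.0505 and 0.861 points, while the third IgLON gene Lsamp had −3.32. The synaptic adhesion gene Sdk1 was above the background in each line, with a mean of 2.36 points. Among the 6 cadherin and catenin genes, the protocadherin genes Pcdh9 and Pcdh15 and the alpha-catenin genes Ctnna2 and Ctnna3 had mean differences of −4.56, −3.29, −2.99 and −0.546 points. Cdh4 and Cdh13, the classical and the lipid-anchored cadherin, had 3.20 and 4.38 points. The neurexin gene Nrxn3 and the related Cntnap2 were below the background in each line, with −3.13 and −4.18 points, whereas the teneurin genes Tenm2, Tenm3 and Tenm4 had 0.651, 5.14 and 5.67. The 3 Csmd genes were divided in the same way, with −6.39 points for Csmd3 and −4.16 for Csmd1 but 3.76 for Csmd2, which has 11.6 CpG sites per kb. The endocytic receptor gene Lrp1b had −4.47 points.

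None of the 6 genes of synaptic scaffolds, channels and receptors had a positive mean. The mean was −5.93 points for Dpp10 and −0.677 for Dpp6, both subunits of Kv4 channels, and −3.36 for Kcnip4, which binds the same channels. It was −3.70 points for the scaffold gene Dlg2, −0.672 for Magi2 and −1.11 for Grid1, a glutamate receptor gene of the delta type. In neuregulin signalling, the receptor gene Erbb4 and the ligand gene Nrg3 had −6.08 and −4.89 points, and the ligand gene Nrg1 had −0.565. The 7 other genes ranged from −5.08 points for Galntl6, which encodes a putative glycosyltransferase, to 4.02 for Auts2. Between them lay Agbl4 with −1.68, Macrod2 with −1.34, Astn2 with −0.868, the splicing factor gene Rbfox1 with −0.844 and the reelin adaptor gene Dab1 with 2.83 points.

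**Figure D3:**
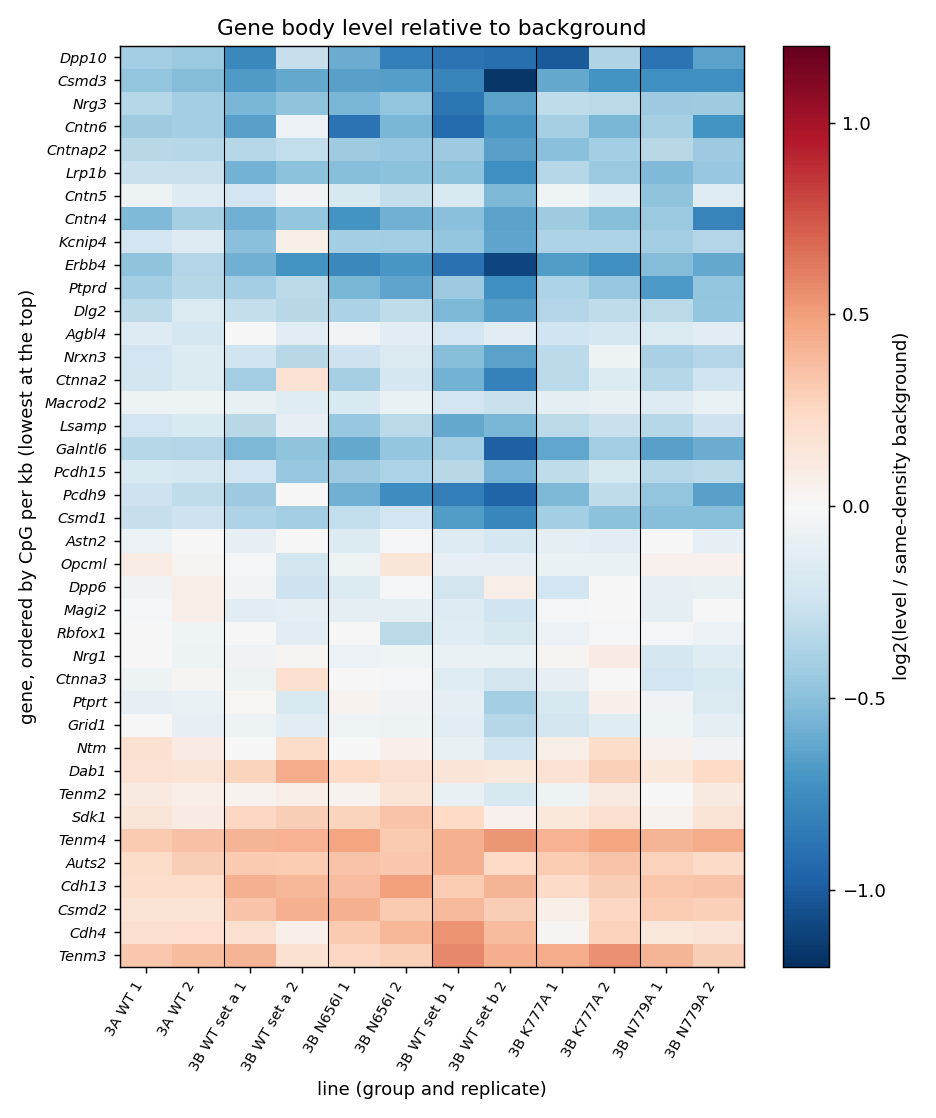
Ratio of the gene body level to the same-density background on a log2 scale (colour) for the 40 genes (rows, ordered by CpG sites per kb with the lowest at the top) in the 12 lines (columns). Blue genes are below and red genes above the background, and the 28 rows with the fewest CpG sites are mostly blue in every group, while the 7 rows with the most are red.

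Within the bodies, the difference from the background changed with the local density. Sites with 1 or 2 CpG sites in 200 bp were below the background of the same density in all 12 lines, by a difference of −3.34 ± 0.128 points in DNMT3A, −1.78 ± 0.201 in WT set a, −2.71 ± 0.445 in WT set b and −0.881 ± 0.185 in K777A. They made up 53.9% to 55.8% of the covered member sites, compared with 40.0% to 41.8% of other autosomal sites. Sites with 6 to 11 CpG sites in 200 bp were above the background in all 12 lines. The differences were 6.04 ± 1.47 points in DNMT3A, 3.09 ± 0.152 in WT set a, 2.67 ± 0.743 in WT set b and 1.23 ± 0.638 in K777A. In DNMT3A the background was 34.1% at 6 to 11 CpG sites and 41.5% at 3 to 5, and the members had 40.1% and 41.5%. The members leave out the first 2 kb of each gene, whereas the background includes those of other genes. Whether this goes with the difference was not tested. Sites with 3 to 5 were below the background in both lines of WT set b, with −0.840 and −1.51 points, and of N779A, with −0.699 and −0.580 points. In each of the other 4 groups, 1 line was below and the other above it at these sites. The stretch from 2 to 20 kb behind the start had the lowest group means relative to the background, with −3.17 ± 0.220 points in DNMT3A, −3.28 ± 0.251 in WT set b, −1.03 ± 0.102 in K777A and −1.97 ± 0.978 in N779A. Farther than 300 kb from the start the differences in these groups were −1.44 ± 0.329, −1.82 ± 0.506, −0.395 ± 0.220 and −0.984 ± 0.0381 points. In N779A replicate 2 the stretch from 20 to 100 kb was lower, with −1.93 compared with −1.28 points. The 2 to 20 kb stretch was below the background in each of the 12 lines, but in WT set a replicate 2 it held only 228 covered sites, and the 2 lines differed there with −2.004 and −7.33 points. Exonic sites were few, at 2.05% to 2.47% of the covered member sites. Their difference from the background was 2.21 ± 0.463 points in DNMT3A and 0.948 ± 0.108 in WT set a, and its sign differed between the lines of WT set b and of K777A.

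The levels of the members also differed with the bases next to the CpG. The 4 palindromic contexts were compared, since both strands then have the same neighbours. At GCGC, member sites had 47.1% and 48.0% in DNMT3A but 8.96% and 7.17% in WT set a, and at TCGA they had 29.2% and 28.9% compared with 25.1% and 23.4%. GCGC was thus the highest of the 4 contexts in both DNMT3A lines and the lowest in both lines of WT set a. In N656I the level was 3.99% ± 0.392 at GCGC and 7.15% ± 1.38 at ACGT, compared with 8.06% ± 1.27 and 12.8% ± 1.10 in WT set a, whereas at CCGG the lines of N656I, at 28.9% and 23.1%, spanned those of WT set a, at 28.1% and 26.6%. In K777A lines CCGG had 1.71% and 1.85%, and in WT set b 24.1% and 20.1%. The level at ACGT in K777A, 13.2% ± 2.13, was above that in WT set b, 9.92% ± 1.09, without overlap of the lines. N779A had 19.9% ± 2.39 at CCGG, with lines that overlapped those of WT set b, and 11.2% ± 1.15 at TCGA, compared with 18.7% ± 2.46. At ACGT the N779A lines, at 12.6% and 14.4%, were above those of WT set b, at 10.7% and 9.15%. The lines of WT set a, at 13.6% and 12.01% in this context, overlapped with those of both K777A and N779A. These are pooled values of the members with 2 lines a group, and no test was run on them. Other autosomal sites in the same context had group means within 2.76 points of those of the members, for example 47.4% ± 0.0816 at GCGC in DNMT3A and 2.02% ± 0.0220 at CCGG in K777A. TCGA and ACGT sites of the members were below those of the background in each of the 12 lines.

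**Figure D4:**
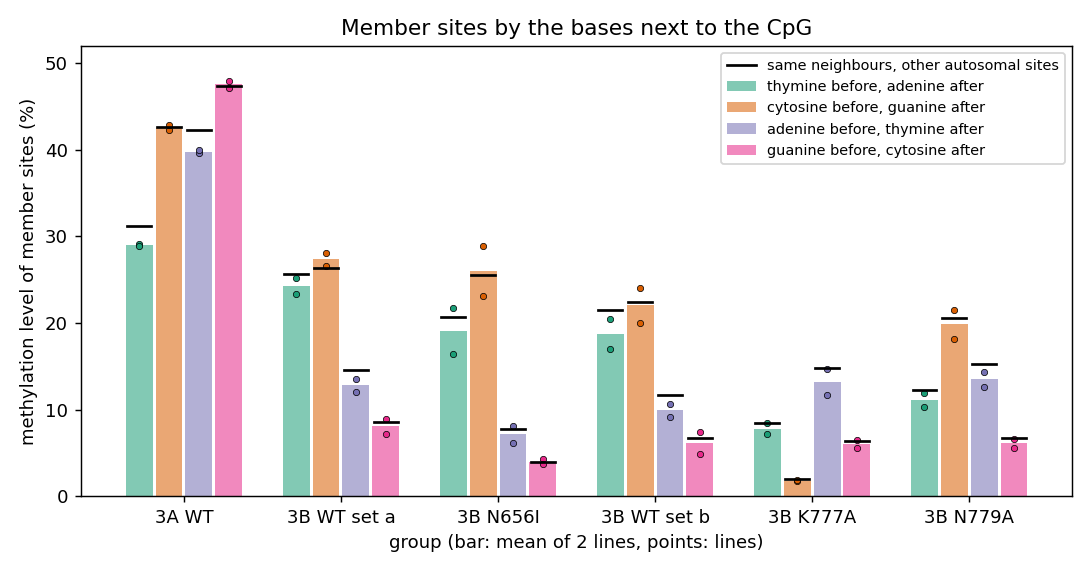
Methylation level of member sites in percent (y axis) for the 4 palindromic neighbourhoods of the CpG in the 6 groups (x axis). Bars are means of 2 lines, points are lines and black lines are other autosomal sites with the same neighbours. The DNMT3A bars are highest for guanine before and cytosine after, at 47.6%, and the K777A bar for cytosine before and guanine after is at 1.78%.

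Single sites with the largest differences are given with their sequence, to show where in these bodies and among which bases they lie. In DNMT3A and WT set a, 431 member sites had 5 or more reads in each of the 4 lines, and those with the largest difference in each direction are given, 1 per gene, so that their differences describe extremes and say nothing of the contexts above. Of these 4 sites, only that in Erbb4 has 1 of the 4 palindromic contexts. Each run is the plus strand of GRCm38 with 30 bases on each side of the CpG, which is in capitals, and all of these sites are in introns.
Cdh4, chr2:179692922-179692983: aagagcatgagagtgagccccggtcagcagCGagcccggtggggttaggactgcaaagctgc
Sdk1, chr5:141853597-141853658: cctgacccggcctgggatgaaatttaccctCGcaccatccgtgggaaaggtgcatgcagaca
Erbb4, chr1:68722317-68722378: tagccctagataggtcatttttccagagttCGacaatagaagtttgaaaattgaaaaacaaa
Nrg1, chr8:32271341-32271402: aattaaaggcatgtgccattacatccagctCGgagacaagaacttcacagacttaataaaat
The Cdh4 site was methylated in 5 of 5 reads in either DNMT3A line and in 0 of 7 and 0 of 6 reads in WT set a. The Sdk1 site was methylated in 5 of 5 reads in either DNMT3A line and in 0 of 8 reads in either line of WT set a. The reverse held for the Erbb4 site, a TCGA, with 1 of 6 and 0 of 5 reads in DNMT3A and 5 of 6 and 15 of 15 reads in WT set a. The Nrg1 site had 2 of 5 and 0 of 5 reads in DNMT3A and 6 of 7 and 8 of 8 reads in WT set a.

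Between K777A and WT set b, 203 member sites reached 5 reads in each of the 4 lines, and the largest differences in each direction were again taken as extremes. Of these, the first Tenm3 site is an ACGT and the second a CCGG.
Tenm3, chr8:48331650-48331711: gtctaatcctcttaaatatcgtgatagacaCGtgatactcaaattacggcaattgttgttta
Ptprd, chr4:76267623-76267684: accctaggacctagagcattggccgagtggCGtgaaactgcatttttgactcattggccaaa
Tenm3, chr8:48346398-48346459: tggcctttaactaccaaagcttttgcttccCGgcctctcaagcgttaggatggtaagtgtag
Dab1, chr4:104378907-104378968: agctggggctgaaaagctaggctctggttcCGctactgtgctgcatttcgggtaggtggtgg
The first Tenm3 site was methylated in 4 of 5 and 5 of 6 reads in K777A and in 0 of 6 reads in either line of WT set b. The Ptprd site had 2 of 6 and 7 of 13 reads in K777A and 0 of 7 and 0 of 5 in WT set b. At the second Tenm3 site, 0 of 5 reads in either K777A line were methylated, compared with 7 of 7 and 6 of 7 reads in WT set b. The Dab1 site had 0 of 7 and 0 of 6 reads in K777A and 5 of 5 and 3 of 7 reads in WT set b.

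Gene bodies were then compared between groups with limma on the log2 odds of the gene body level, at first with each line centred on its median gene, so that a change is relative to the median gene of the line. All autosomal protein-coding genes with at least 20 covered sites in the 4 lines compared were tested, with Benjamini-Hochberg adjustment over all of them. Without centring, the median gene differed by 1.67 on the log2 scale between DNMT3A and WT set a, by −0.40 between N656I and WT set a, by −1.07 between K777A and WT set b, by −0.22 between N779A and WT set b and by −0.26 between the WT sets.

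Relative to DNMT3B, DNMT3A gave higher levels in every member. Csmd3, with 28.6% and 27.7% against 11.4% and 11.3%, and Tenm4, with 49.7% and 50.6% against 24.2% and 23.0%, are examples of members with low and high levels. Without centring, all 40 bodies were higher in DNMT3A than in WT set a at an adjusted p of at most 1.01e-05 (limma), with log2 changes of 1.37 to 1.89, and 97.1% of the 5804 genes tested were higher. Relative to the median gene, 0 of the 40 members passed the threshold of 0.05 in either direction, and 0% of the 5804 genes were called higher and 0% lower (limma). At an unadjusted p under 0.05, 5 members and 719 of all genes had a difference. The median change of the members was −0.07, with a range of −0.31 for Cntn6 to 0.21 for Tenm3, and that of all genes was −0.02. The median of the members was 0.04 with log2 of the level in place of the odds, and 0.0031 without WT set a replicate 2. It was −0.11 without WT set a replicate 1, −0.10 with at least 50 sites and −0.10 without CCGG sites. Of the related genes, 0 of 49 tested passed, and of the housekeeping genes 0 of 9. With WT set a replicate 1 left out, so that the other line of this group is assumed to vary like the other groups, 1 member was called higher and 7 lower, together with 676 and 591 genes in all.

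N656I gave lower pooled levels of the members than WT set a in both lines. Relative to the median gene, 0 of 40 members passed the threshold, 0% of 5804 genes were called higher and 0% lower (limma), and 3 members and 630 genes had an unadjusted p under 0.05. The median change of the members was −0.05, from −0.51 for Pcdh9 to 0.28 for Cdh4. This median was 0.0013 without N656I replicate 1 and −0.10 without N656I replicate 2. Pcdh9 had 10.7% and 7.33% in N656I and 13.5% and 17.4% in WT set a, and Cdh4 had 19.9% and 16.1% compared with 20.6% and 17.7%. Without centring, Pcdh9 was the only member called lower, with a log2 change of −0.91 ± 0.23 (SE) and an adjusted p of 0.0394 (limma), and 0.637% of the genes were lower. Relative to the median gene and without WT set a replicate 1, the members had a median change of −0.07, compared with −0.02 for all genes.

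K777A gave lower levels than WT set b in all 40 bodies. Over 5804 genes with values in every line, the median level was lower as well, with 8.03% and 9.13% compared with 17.0% and 16.1%. Without centring, 36 of the 40 were called lower with log2 changes down to −1.45, and so were 63.7% of the 11745 genes tested (limma). The 4 others, Ctnna2, Cntn6, Nrg3 and Pcdh9, had log2 changes of −0.47, −0.58, −0.47 and −0.45 and adjusted p-values of 0.0638, 0.0672, 0.0565 and 0.0797. The members have many more sites than most genes, and their median SE relative to the median gene was 0.105 compared with 0.376 for all genes. Relative to the median gene, the direction of most members was the opposite, with 34 of 40 changes positive. Positive changes were also seen in 6037 of 11745 genes in all and in 364 of 495 other genes of at least 300 kb. The median was 0.28 for the members, compared with 0.02 for all genes and 0.17 for the other long genes. The median of the members was 0.17 without WT set b replicate 2 and 0.37 without WT set b replicate 1. Of the members, 1 was called higher and 0 lower, and of all genes 0.0511% were called higher and 0.00851% lower (limma). At an unadjusted p under 0.05 there were 26 members and 1252 genes.

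The member called was Nrxn3 (chromosome 12, 88722876 to 90334935, plus strand), a presynaptic neurexin. Its level was 5.96% and 8.10% in K777A and 10.6% and 8.93% in WT set b, so that it was lower in K777A, but by less than the median gene. On the centred log2 odds, the K777A lines had −0.48 and −0.20 and the lines of WT set b −0.80 and −0.98, which did not overlap. The change was 0.55 ± 0.10 (SE) with an adjusted p of 0.0305 (limma). In the other lines, Nrxn3 had 34.2% and 35.6% in DNMT3A, 15.5% and 13.7% in WT set a, 13.4% and 10.8% in N656I, and 9.36% and 11.1% in N779A. The call was lost in the replicate block and in 8 further settings named in the closing section, and without either K777A line.

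Between N779A and WT set b, the members had a median log2 change without centring of −0.02 and changes from −0.60 to 0.30, and 0 of 40 members and 0% of 11711 genes were called lower (limma). At an unadjusted p under 0.05 there were 2 members and 892 genes. Relative to the median gene, 33 of the 40 changes were positive. So were those of 6047 of 11711 genes in all and of 320 of 495 other genes of at least 300 kb. The median was 0.22 for the members, compared with 0.01 for all genes and 0.08 for the other long genes. However, 0 members passed, and 0% of the genes were called higher and 0% lower (limma). An unadjusted p under 0.05 was seen for 16 members and 860 genes. The median of the members was 0.13 without WT set b replicate 2 and 0.09 over sites covered in all 4 lines. The changes ranged from −0.36 for Cdh4 to 0.54 for Erbb4, which had 8.53% and 9.18% in N779A and 8.09% and 6.52% in WT set b. K777A and N779A were compared with the same lines of WT set b, so that these values are not independent of each other.

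The positive changes of both mutants depended on the set of WT lines. In the comparison of the sets relative to the median gene, 38 of the 40 members were lower in WT set b. So were 2944 of 5804 genes in all and 361 of 494 other genes of at least 300 kb. The median was −0.27 for the members, −0.01 for all genes and −0.16 for the other long genes. The change was −0.84 for Pcdh9, with 8.61% and 7.199% in set b and 13.5% and 17.4% in set a, and 0.34 for Cdh4, with 22.2% and 18.2% compared with 20.6% and 17.7%. None of them passed the threshold, with 0% of 5804 genes called higher and 0% lower (limma), the lowest adjusted p being 0.0535, and 24 members and 959 genes had an unadjusted p under 0.05. Without centring, Pcdh9, Ctnna2 and Lsamp were called lower, of 1.46% of the genes. With WT set a replicate 1 left out, 2 members were called higher and 19 lower, of 750 and 713 genes. With WT set a in place of WT set b, the median change of the members relative to the median gene was −0.01 in K777A and −0.11 in N779A, and 0 members passed in either. With WT set b in place of WT set a, it was 0.22 in DNMT3A and 0.21 in N656I. The 2 sets differ in their libraries as well as in their lines, and which of these goes with the difference was not tested.

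**Figure D5:**
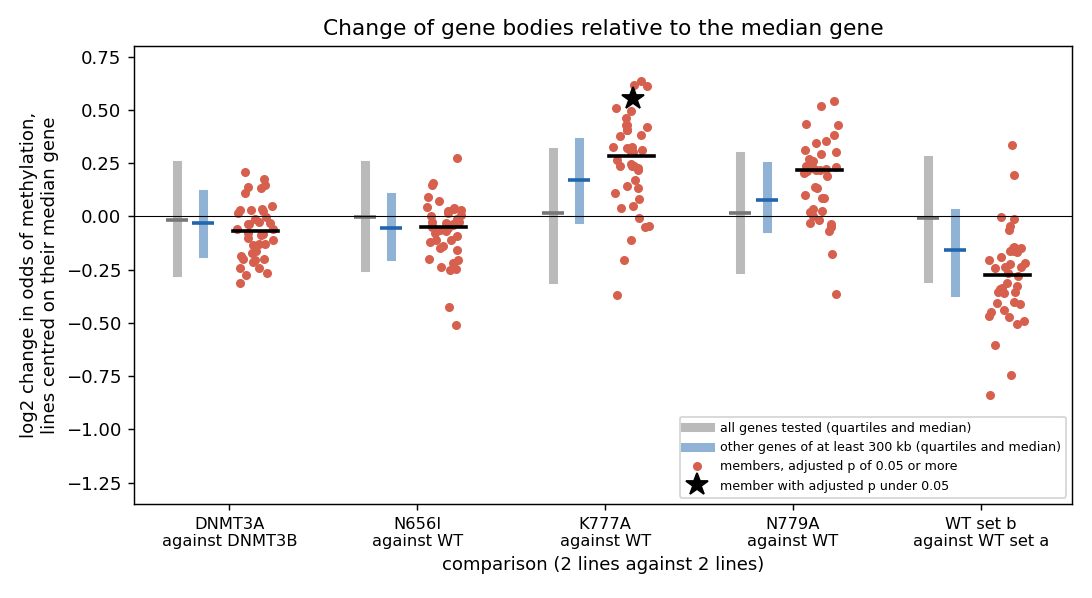
Log2 change in the odds of methylation with each line centred on its median gene (y axis) for the 5 comparisons (x axis). Points are the 40 members with their median as a black bar, and broad bars are the quartiles of all genes tested and of other genes of at least 300 kb. The median of the members is 0.28 in K777A and −0.27 between the WT sets, the star is Nrxn3, and without centring the median in K777A is −0.80.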

How the data were processed

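eRRBS was measured in 12 lines. The deposited values are raw counts: at 21867550 CpG sites of mm10 the authors counted, per line, the methylated reads and all reads after trimming with cutadapt (1.12 per the submitters' processing notes), alignment with Bismark 0.18.1 and Bowtie 1.2, removal of read pairs with several methylated non-CpG cytosines in a read and merging of both strands. Every row was checked to be a CG in GRCm38. Counts are not normalized, and deep sites were kept.

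Gene bodies were taken from the GENCODE annotation in GRCm38 coordinates, from 2000 bp downstream of the start to the end. The level was the mean over covered sites of methylated reads divided by all reads. For limma 3.58.1 in R 4.3.3, levels were set to log2((m + 0.5/n)/(1 − m + 0.5/n)), where m is the level and n the number of covered sites, with all 12 lines in 1 fit of 6 groups, a variance trend on the number of sites, the Benjamini-Hochberg method over all genes tested and a threshold of 0.05. A gene needed 20 covered sites in each line compared. Differences from the background have no test, since no p is given for a score over the members. With 2 lines a group, the p-values use the spread between the lines within all 6 groups, also those outside the comparison. This spread was drawn toward that of genes with similar numbers of sites. The limma fit and the density-weighted background were each run on simulated data, and the outcome is not given here. Sequences were read from the GRCm38 genome. Python 3.11.15, numpy 2.4.6 and pandas 2.3.3 were used.

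The members, the lists and the tests were chosen with earlier results of these data known. Named in full were the 4 genes highest and the 4 lowest against the background, and in each comparison up to 3 genes a direction past the threshold whose lines did not overlap. The rule named Nrxn3 only. Other members were named as parts of a family or as ends of a range, after their values were seen. Sites with sequence were those with the largest differences at 5 or more reads in 4 lines. The alternatives, whose effect is given in the closing section, were no centring, only the lines compared, summed reads, a minimum of 5 reads, log2 of the level, 50 sites, a variance trend on the mean, shared sites, no CCGG sites, a replicate block, each line left out, the other WT set, and for the background no weighting, weighting by flanking bases, no sites above the 99.9th percentile of coverage and a density limit of 6.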

Additional observations from a re-analysis of the deposited data

Results flagged for a closer look

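Differences from a background were looked at for members in which every line of 1 group lay above and every line of the compared group below it. With 2 lines a group, none of these differences in points was tested. Pooled, the members differed from sites outside protein-coding genes by −0.0577 points in N656I (−0.0740 and −0.0415) and by 0.199 points in WT set a (0.0488 and 0.349). Against the same sites they differed by 0.245 points in K777A (0.118 and 0.372) and by −0.505 points in WT set b (−0.287 and −0.723), the latter also being opposite in sign to WT set a. Against the background of the same density, Nrg1 differed by 0.370 points in K777A and −0.746 in WT set b, and Ntm by 0.866 points in K777A and −1.54 in WT set b. Opcml differed by 1.67 points in DNMT3A and −1.36 in WT set a, and by 0.503 points in N779A and −0.964 in WT set b. Tenm2 differed by −1.36 points in WT set b and 0.794 in WT set a. In the limma comparison relative to the median gene, none of these genes passed the threshold in the contrast named.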

How the results depend on the processing

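The count of members called relative to the median gene changed most with the centring and with WT set a replicate 1. Without centring it was 40 for DNMT3A against DNMT3B, 1 for N656I, 36 for K777A and 3 between the WT sets. Leaving out each line in turn gave 0 to 8 members for DNMT3A against DNMT3B, 0 to 6 for N656I, 0 to 2 for K777A and 0 to 21 between the WT sets. The highest counts of DNMT3A, N656I and the WT sets came without WT set a replicate 1, where the line with the fewest covered sites stood alone, and that of K777A without WT set b replicate 1. The single K777A call became 0 with only the 4 lines compared, with summed reads, with at least 5 reads and with log2 of the level. It also became 0 with the variance trend on the mean, with shared sites and without CCGG sites. The same held with the other WT set and in the replicate block. With at least 50 sites, 2 members were called higher for K777A, and of 7357 genes 11 were called higher and 2 lower. With the other WT set, 1 member was called higher for N656I, and of 11706 genes 2 were called higher and 0 lower. Between the WT sets, 1 member and 13 of 4243 genes were called lower with at least 5 reads. With log2 of the level these were 2 members and 8 of 5804 genes. They were 6 members and 35 of 2239 genes with at least 50 sites, and 3 and 16 of 5256 without CCGG sites. In the same order, 0 members were called higher in each setting, and 29, 0, 2 and 1 genes. The replicate block left 0 members called in the other comparisons. Replicate numbers only name the lines, and the correlation of the deviations of same-numbered lines over genes was 0.0236, −0.00354, −0.0346, −5.22e-05 and −0.0156 in the 5 comparisons. N779A kept 0 calls in all of its settings.

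The difference between members and background kept its sign in every setting. With each line left out in turn it was −1.57 to −1.19 points in DNMT3A, −0.902 to −0.423 in WT set a, −1.03 to −0.554 in N656I, −2.04 to −1.38 in WT set b, −0.558 to −0.218 in K777A and −1.06 to −0.976 in N779A. In DNMT3A it moved to −1.06 points with summed reads, −0.903 with at least 5 reads, −0.908 without weighting and −2.02 with a density limit of 6. In N779A these settings gave −0.925, −0.765, −0.870 and −1.25, and weighting by flanking bases gave −0.901. A density limit of 6 gave −1.01 in WT set a, and in K777A at least 5 reads gave −0.134, no weighting −0.237 and weighting by flanking bases −0.607. The cause of these changes was not tested. The count of members below the background without WT set a replicate 2 was chosen after seeing the data.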
